A study of Mus musculus with 2 samples.

Results

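The genes described here encode the enzymes, membrane proteins and transcriptional regulators of the lysosome, and they were chosen by name, at a time when earlier results of these data were known. The set names 48 genes, of which 47 had a probe set annotated to them alone, out of 22180 genes with such a probe set on the array. They were divided into 13 cathepsins, 11 glycosidases, 16 other hydrolases and their helper proteins, 5 membrane proteins and 3 regulators. The exception was Glb1, the gene of lysosomal β-galactosidase, whose 1 probe set is shared with another gene and was not used. The 47 genes had 49 probe sets. RNA was measured in clone P3, an isolated line of mouse MC3T3-E1 cells stably transfected with periostin cDNA, and in control MC3T3-E1 cells carrying the empty vector. Both are preosteoblastic cells of a line maintained in medium without ascorbic acid, and geneticin was used to select stable clones. Whether geneticin was present when RNA was taken is not stated in the sources used here. Each condition had 1 Affymetrix Mouse Gene 2.0 array, hybridized from 200 ng of total RNA. Clone P3 is 1 clone, and the sources used here do not say whether the control is also one.

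Lysosomes are acidic organelles in which proteins, glycans, lipids and nucleic acids are broken down. Most of their soluble enzymes carry a mannose 6-phosphate tag that directs them from the Golgi apparatus to the organelle, and inherited loss of single enzymes causes storage disease. Many of their genes share a short promoter element, the CLEAR element, built around the letters CACGTG and bound by the transcription factors TFEB, TFE3 and MITF. In bone, lysosomal hydrolases are best known from osteoclasts, which secrete cathepsin K and tartrate-resistant acid phosphatase onto the bone surface, whereas osteoblasts use lysosomes in the turnover of collagen and of other matrix proteins.

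Values are log2 RMA values as the authors deposited them. Differences are given as clone P3 minus control, 1 being 2-fold more in clone P3, and the value of a gene with 2 probe sets is their mean. With 1 array per condition there was no replicate check and no test, an effect of periostin cannot be told apart from other differences of the clone, the culture or the array, and fewer cells of a type cannot be told apart from less RNA per cell. As a description of how far values move between these 2 arrays, each gene was set beside the 500 genes nearest to it in mean level, and the 5th and 95th percentiles of their differences are given as the spread. Among the 157 genes with 2 probe sets that both had a mean level of at least 6, the differences of the probe sets of 1 gene lay apart by a median of 0.14, and by less than 0.37 in 90% of these genes. Probe sets differ in their affinity, so that the level of a gene is set only beside the median of all probe sets and not beside that of another gene.

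The labels were checked first on periostin. Postn stood at 10.07 in clone P3, against 4.65 in control cells, and its difference of 5.43 was exceeded by 0 of the 41345 probe sets. The type I collagen genes Col1a1 and Col1a2, which are strongly used by osteoblasts, stood at 11.79 and 10.99 in clone P3, against 11.41 and 10.68 in control cells. Markers of osteoblast differentiation lay near the median of 4.58 for the mean levels of all probe sets. Sp7 stood at 4.62 in clone P3, against 4.05 in control cells, and Ibsp at 4.28 in clone P3, against 4.09 in control cells. Bglap stood at 4.52 in clone P3, against 4.57 in control cells. Among 11 macrophage markers, the median value was 3.88 in clone P3, against 3.76 in control cells, and their values ran between 3.34 and 7.03 in clone P3 and between 3.38 and 7.68 in control cells. Of the 11, 7 had a difference above 0, the highest being Itgam at 0.33, and 4 were below 0. Ptprc, the pan-leukocyte gene CD45, stood at 3.34 in clone P3, against 3.69 in control cells, below the median probe set on both arrays. A mean level above the median probe set was reached by 3 markers. Besides Cd14 these were Cd68, at 6.20 on both arrays, and Csf1r, at 4.60 in clone P3, against 4.90 in control cells. Cd14, which other cells can also express, stood at 7.03 in clone P3, against 7.68 in control cells, and was the 1 macrophage marker past 1.5-fold, at -0.65.

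The promoters of the genes with the largest difference in each direction, and of 1 gene whose RNA was nearly equal on both arrays, are printed to show where the CACGTG letters lie. RefSeq promoters of the build GRCm38.p6, from 250 bases before to 50 bases after a start site, were matched for 42 of the 48 genes (not Asah1, Ctsb, Ctse, Ctsh, Ctsw and Galns). All sequences run 5′ to 3′ on the strand of the gene, and CACGTG is in capitals. They are the promoters of Gm2a (chr11:55097735-55098034, plus strand), Mcoln1 (chr8:3500269-3500568, plus strand) and Ctsd (chr7:142387778-142388077, minus strand).
Gm2a: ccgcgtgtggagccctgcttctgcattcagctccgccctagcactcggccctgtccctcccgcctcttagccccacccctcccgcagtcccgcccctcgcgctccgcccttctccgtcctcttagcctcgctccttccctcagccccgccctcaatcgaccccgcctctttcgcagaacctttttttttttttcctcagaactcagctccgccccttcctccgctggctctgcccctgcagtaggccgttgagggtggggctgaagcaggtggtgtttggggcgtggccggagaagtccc
Mcoln1: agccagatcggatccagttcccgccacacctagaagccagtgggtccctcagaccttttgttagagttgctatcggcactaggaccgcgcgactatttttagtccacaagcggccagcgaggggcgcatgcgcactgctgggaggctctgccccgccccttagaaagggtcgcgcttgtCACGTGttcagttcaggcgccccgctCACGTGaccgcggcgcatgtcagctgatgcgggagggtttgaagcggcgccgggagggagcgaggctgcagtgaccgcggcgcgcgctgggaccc
Ctsd: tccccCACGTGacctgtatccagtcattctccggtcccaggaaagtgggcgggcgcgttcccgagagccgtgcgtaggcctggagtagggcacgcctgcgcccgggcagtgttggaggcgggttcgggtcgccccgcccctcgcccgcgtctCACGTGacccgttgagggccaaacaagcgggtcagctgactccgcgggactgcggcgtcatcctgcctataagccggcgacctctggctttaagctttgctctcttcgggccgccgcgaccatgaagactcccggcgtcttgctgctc

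The letters CACGTG, searched on both strands, were found in the promoters of 13 of the 42 genes (31.0%), and in those of 8.09% of the 27025 genes of the promoter table. The longer form TCACGTG, which contains the first, was found on either strand in 11 of the 42 genes (26.2%) and in 4.29% of all genes. The palindrome TCACGTGA was found in 4 of the 42 genes, namely Ctsa, Ctsd, Gla and Mcoln1 (9.52%), and in 1.12% of all genes. Its extension by a G before and a C after it was in 0 of the 42 genes and in 0.37% of all genes. A match is a description of these letters in this window and not evidence of binding. Stretches of 30 bases around single sites are shown for 4 further genes that hold the letters, since their RNA values are described in the following paragraphs. They lie at chr2:164833749-164833778 (Ctsa, plus strand), chrX:134601182-134601211 (Gla, minus strand), chr8:13159088-13159117 (Lamp1, plus strand) and chr11:101070009-101070038 (Naglu, plus strand).
Ctsa: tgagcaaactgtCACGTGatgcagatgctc
Gla: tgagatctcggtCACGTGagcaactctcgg
Lamp1: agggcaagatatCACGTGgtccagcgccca
Naglu: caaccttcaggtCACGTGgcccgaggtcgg

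Most lysosomal genes had close RNA values in clone P3 and control cells. Among the 47, a log2 difference of at least 1 was reached upward by 0 genes and downward by 1, Gm2a, and 46 lay in between. Among all 22180 genes, 0.6% reached it upward and 0.496% downward (0.482% and 0.622% when each array was centred on its median, so that the balance of directions rests on the centring). At the milder threshold of 1.5-fold, 3 lysosomal genes were higher, Mcoln1, Scarb2 and Acp5, and 1 was lower, again Gm2a, beside 3.26% of all genes higher and 2.79% lower. In a set of 47 genes such shares amount to 1 or 2 genes in each direction. The median difference of the 47 genes was -0.05, with 21 above 0 and 26 below 0, and that of all genes was 0.00. Among genes that averaged 6 or more, as most lysosomal genes did, the median was -0.05 for the 39 lysosomal genes and -0.05 for all 8584, of which 59.1% were below 0. The median size of the difference regardless of sign was 0.18 among lysosomal genes and 0.18 among all genes.

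Of the 47 lysosomal genes 42 were on average no dimmer than the median probe set, beside 12983 of all 22180 genes. That median is not a limit of detection. The 5 below it were Ctsc, Ctse, Ctsf, Ctss and Acp5. For the 39 genes that averaged 6 or more the counts were 2 higher and 1 lower by at least 1.5-fold, and 0 higher and 1 lower by at least 1. Among the 8584 genes of the array with such a level, 2.74% were higher and 2.59% lower by at least 1.5-fold, and 0.827% were higher and 0.582% lower by at least 1. In the spread of the genes nearest in level, 41 of the 47 genes lay between the 5th and 95th percentiles and 6 lay outside (12.8%), where 10% of the nearest genes lie by construction. The 6 were Gm2a and Ctsh, which were lower in clone P3, and Mcoln1, Scarb2, Acp5 and Manba, which were higher.

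**Figure D1:**
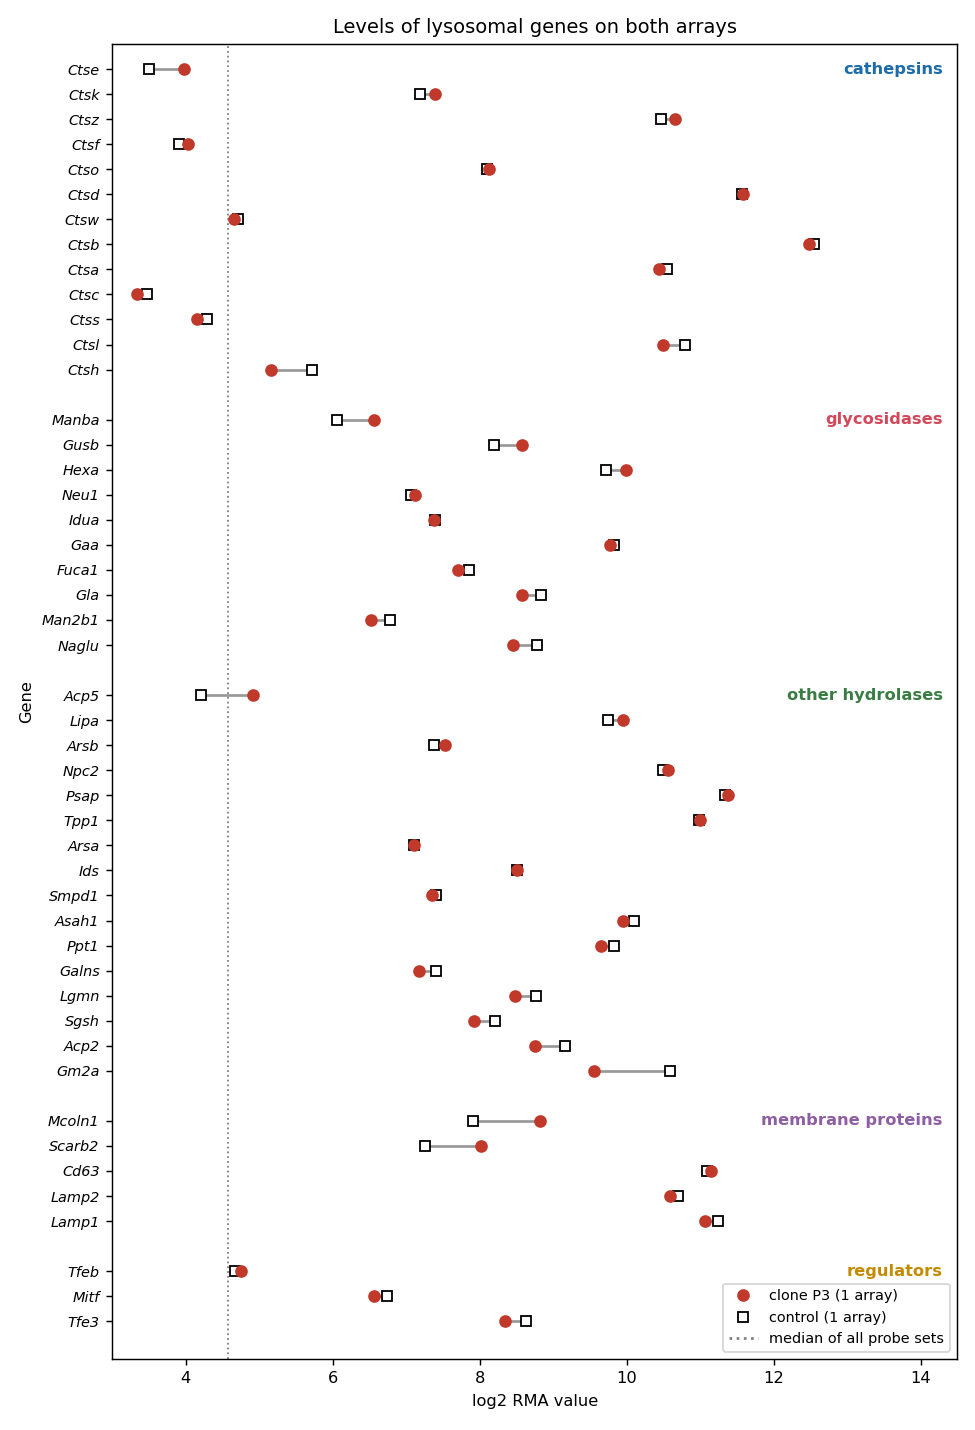
Log2 RMA values (horizontal axis) of the 47 lysosomal genes, in clone P3 (filled circles) and control cells (open squares), 1 array each, ordered within each group by the difference. The circle and square lie close together for most genes, while Gm2a is lower in clone P3 by 1.03 and Mcoln1 is higher by 0.92.

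**Figure D2:**
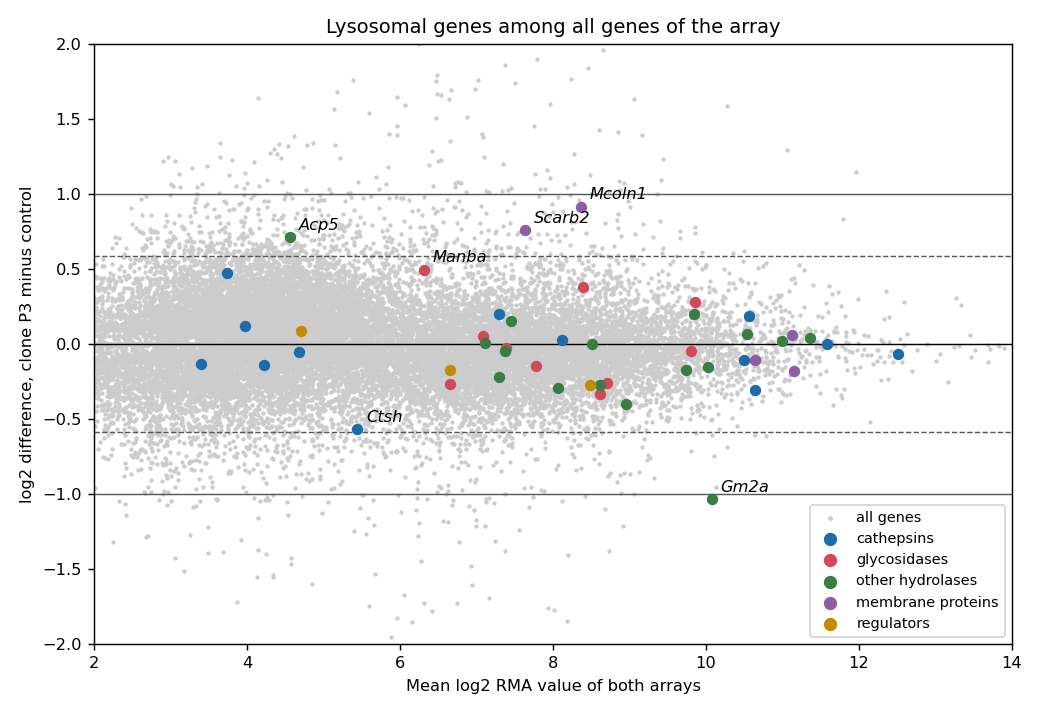
Log2 difference, clone P3 minus control cells, on the mean log2 value of both arrays, with all genes in grey and lysosomal genes in the colour of their group; solid lines mark 1 and -1, and dashed lines 1.5-fold. The vertical axis ends at 2 on either side of 0, which leaves out 21 genes and 0 lysosomal ones, and the 6 named genes lie outside the 5th to 95th percentiles of the genes nearest in level.

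Cathepsins are the proteases of the lysosome, mostly of the cysteine type, with the aspartic proteases encoded by Ctsd and Ctse and the serine carboxypeptidase encoded by Ctsa. In this group 0 of 13 genes passed a 1.5-fold difference in either direction. Their median difference was -0.05, with 6 genes above 0 and 7 below 0. The nearest to the threshold was Ctsh, the gene of an aminopeptidase of the cysteine type, standing at 5.15 in clone P3, against 5.72 in control cells. Its difference of -0.57 was below the spread of the genes nearest in level, which ran from -0.47 to 0.53, and 2.4% of those genes lay lower. Ctse stood at 3.97 in clone P3, against 3.50 in control cells, a difference of 0.47 that stayed within the spread of -0.43 to 0.53. Both its values lay below the median probe set, so that this difference is between dim signals.

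The cathepsins with bright probe sets differed little. Ctsb, which encodes an endopeptidase and carboxypeptidase of most cell types, had 12.48 in clone P3, against 12.55 in control cells. Ctsd, whose protease helps to activate other lysosomal enzymes, had 11.58 in clone P3, against 11.57 in control cells, a difference of 0.0013. Ctsa, which like Ctsd holds TCACGTGA in its promoter, had 10.44 in clone P3, against 10.55 in control cells. All 3 differences were smaller in size than 0.14, the median gap between bright probe sets of 1 gene. Ctsl, the gene of a broadly acting endopeptidase, had 10.49 in clone P3, against 10.79 in control cells, and its difference of -0.31 lay inside the spread, with 7.2% of the nearest genes lower. Ctsz, a carboxypeptidase gene, had 10.65 in clone P3, against 10.47 in control cells.

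Ctsk, whose collagenolytic protease is the main enzyme of bone resorption by osteoclasts, stood at 7.39 in clone P3, against 7.19 in control cells. The difference of 0.20 lay within the spread of -0.47 to 0.38. Ctso had 8.13 in clone P3, against 8.10 in control cells. The cathepsin genes known chiefly from immune cells, Ctsc, Ctss and Ctsw, had differences of -0.14, -0.14 and -0.05, and Ctsf had 0.12. Of these only Ctsw had a mean level above the median probe set.

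Glycosidases remove sugars from glycoproteins, glycolipids and glycosaminoglycans one at a time. Of the 11 genes 10 were measured, and 0 of them differed by 1.5-fold in either direction. The median difference was -0.04, with 4 genes above 0 and 6 below 0. Manba, the gene of β-mannosidase, which acts on the last steps of N-glycan breakdown, had 6.56 in clone P3, against 6.06 in control cells. Its difference of 0.49 was just above the spread of -0.58 to 0.48. Gusb, the β-glucuronidase gene, had 8.58 in clone P3, against 8.20 in control cells, a difference of 0.38 within a spread that reached 0.44. It lies on chromosome 5, where the median gene was at 0.20.

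The remaining glycosidase genes stood on both sides of 0. Hexa, which encodes the α subunit of β-hexosaminidase and works on GM2 ganglioside, had 9.99 in clone P3, against 9.71 in control cells, a difference of 0.28. Gla, the gene of α-galactosidase A, had 8.57 in clone P3, against 8.83 in control cells, a difference of -0.26. Naglu, which encodes an enzyme of heparan sulfate breakdown, had 8.45 in clone P3, against 8.78 in control cells, and its difference of -0.33 was the lowest of the glycosidase genes. The promoters of Gla and Naglu are among those with CACGTG. Man2b1, the gene of lysosomal α-mannosidase, had 6.52 in clone P3, against 6.78 in control cells. The differences of Gaa (acid α-glucosidase), Idua (α-iduronidase), Neu1 (sialidase) and Fuca1 (α-fucosidase) ran between -0.15 and 0.05. Man2b1 and Manba, which both cut mannose, stood on opposite sides of 0, with -0.27 and 0.49, but Man2b1 lay within its spread of -0.47 to 0.40.

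The remaining soluble proteins comprise sulfatases, lipid hydrolases, proteases, phosphatases and the small proteins that present lipids to enzymes. Of these 16 genes 1 passed 1.5-fold upward and 1 downward, and the median difference was -0.03. Gm2a encodes the GM2 activator, which lifts GM2 ganglioside out of the membrane for β-hexosaminidase. It stood at 9.56 in clone P3, against 10.59 in control cells. The difference of -1.03, or 2.05-fold lower in clone P3, was the largest of the 47 genes in size. The spread of the 500 genes nearest in level ran from -0.40 to 0.37, and 0% of them lay lower. The RNA of the activator and that of its partner enzyme subunit stood on opposite sides of 0, at -1.03 for Gm2a and 0.28 for Hexa. The value of Hexa lay within its spread of -0.41 to 0.37. The other genes of lipid-presenting proteins differed little, with Psap, the gene of prosaposin, at 11.37 in clone P3, against 11.34 in control cells, and Npc2, the gene of a cholesterol carrier, at 10.57 in clone P3, against 10.50 in control cells.

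Acp5, the gene of tartrate-resistant acid phosphatase, had 4.92 in clone P3, against 4.20 in control cells. The difference of 0.71, or 1.64-fold, was above the spread of -0.45 to 0.57 and above 98.6% of the genes nearest in level. Its mean level of 4.56 lay just below the median probe set, so that the difference is between dim signals. Among 10 osteoclast markers 0 were higher and 1 was lower by 1.5-fold. Of the 10, 6 had a difference above 0 and 4 below 0. Dcstamp, which is needed for the fusion of osteoclast precursors, had 4.52 in clone P3, against 4.18 in control cells, and Oscar had 4.22 in clone P3, against 4.15 in control cells. Nfatc1 had a difference of 0.26 and Car2 one of -0.19. The marker lower by 1.5-fold was Itgb3, an integrin gene also used by other cells, with 7.23 in clone P3, against 8.18 in control cells. The osteoclast markers had a median of 4.47 in clone P3 (3.60 to 7.58) and 4.32 in control cells (3.76 to 8.18). Their part in the value of Acp5 was not tested. Acp2, which encodes the other acid phosphatase of the set, had 8.76 in clone P3, against 9.16 in control cells, a difference of -0.40 at the lower edge of its spread, which began at -0.40.

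Sulfatase genes and lipid hydrolase genes stayed within their spreads. Sgsh, Galns and Ids, whose sulfatases act on heparan sulfate, keratan sulfate and dermatan sulfate chains, had differences of -0.29, -0.22 and -0.0030, and Arsa, the gene of arylsulfatase A, had 0.0043. Arsb, the gene of arylsulfatase B, had 2 probe sets. The brighter had 9.43 in clone P3, against 9.12 in control cells, a difference of 0.31, and the dimmer had 5.62 on both arrays, a difference of 0. Smpd1, the gene of acid sphingomyelinase, also had 2, which differed in sign. The brighter had 8.12 in clone P3, against 8.33 in control cells, and the dimmer had 6.58 in clone P3, against 6.47 in control cells, so that the direction for Smpd1 depends on the probe set. Lipa, the gene of the acid lipase that frees cholesterol, had 9.95 in clone P3, against 9.75 in control cells, and Asah1, the acid ceramidase gene, had 9.95 in clone P3, against 10.10 in control cells. Of the other proteases and thioesterases, Lgmn (legumain, which cuts after asparagine) had -0.28, Ppt1 (which removes palmitate from proteins) had -0.18 and Tpp1 (a tripeptidyl peptidase) had 0.02.

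Membrane proteins of the lysosome split into genes that were nearly equal on both arrays and 2 that were higher in clone P3. Mcoln1, which encodes the calcium-releasing channel mucolipin 1, stood at 8.82 in clone P3, against 7.91 in control cells. The difference of 0.92, or 1.89-fold, was above 98.8% of the genes nearest in level, whose spread ran from -0.47 to 0.41. Scarb2, which encodes LIMP-2, the receptor that carries glucocerebrosidase to the lysosome, had 8.01 in clone P3, against 7.25 in control cells. The difference of 0.76, or 1.69-fold, was above 100% of the 500 genes nearest in level, whose spread ran from -0.45 to 0.37. Scarb2 lies on chromosome 5, whose median was 0.20, and without that median its difference was 0.56 and no longer reached 1.5-fold. Lamp1 and Lamp2, which encode heavily glycosylated proteins that line the membrane, were not higher in clone P3. Lamp1 had 11.06 in clone P3, against 11.24 in control cells, and Lamp2 had 10.59 in clone P3, against 10.70 in control cells. Cd63, a tetraspanin gene, had 11.15 in clone P3, against 11.09 in control cells. The median of the 5 genes was 0.06 and their mean 0.29.

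Regulators of lysosomal genes showed no difference of 1.5-fold. Tfeb, the gene of the factor best known for driving lysosomal genes, had 4.75 in clone P3, against 4.67 in control cells, close to the median of all probe sets. Tfe3, its close relative, had 8.35 in clone P3, against 8.62 in control cells, a difference of -0.27 within a spread of -0.49 to 0.42. Mitf, the third of these genes and a regulator of Ctsk and Acp5 in osteoclasts, had 6.57 in clone P3, against 6.74 in control cells. These factors are controlled largely by phosphorylation and nuclear entry, which the array does not measure.

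Genes with and without CACGTG in the promoter had overlapping differences. The 12 measured genes with it (Glb1 being the unmeasured one) had a median difference of -0.14 and ran from -0.33 to 0.92, and the 29 without it had a median of 0.03 and ran from -1.03 to 0.76. Mcoln1, the highest of the 47 genes, carries the letters at 71 and 45 bases before its start site, while Gm2a, the lowest, and Scarb2 carry none in the window. Among the 4 genes with TCACGTGA the differences were 0.92 for Mcoln1, 0.0013 for Ctsd, -0.11 for Ctsa and -0.26 for Gla.

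**Figure D3:**
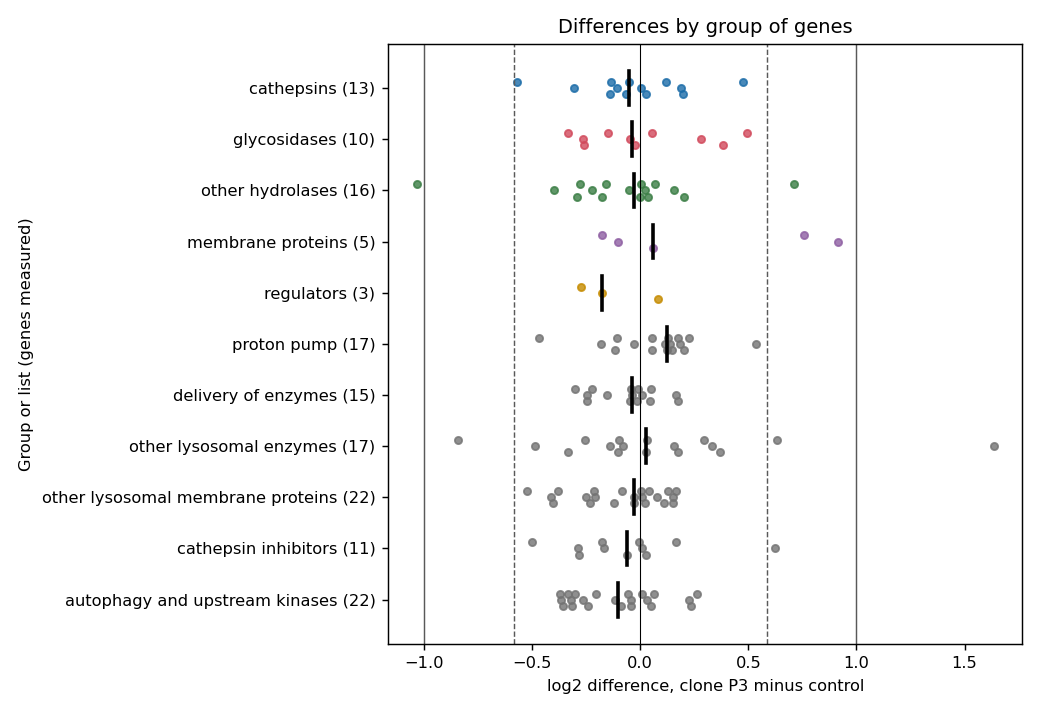
Log2 differences, clone P3 minus control cells (horizontal axis), of the 5 groups of lysosomal genes (coloured) and of 6 further lists of the pathway (grey), each point 1 gene and each black bar the median of a list; solid lines mark 1 and -1, dashed lines 1.5-fold. Every median lies between -0.18 and 0.12, and the points past 1 are Gm2a among the lysosomal genes and Ifi30 among the further ones.

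The rest of the pathway was read from 6 further lists with 104 measured genes. Past a difference of 1 lay 1 gene upward and 0 downward, beside 0.6% and 0.496% of all genes. By at least 1.5-fold 3 were higher and 1 was lower, beside 3.26% and 2.79% of all genes. The median difference was -0.03. Genes of the proton pump that acidifies the lysosome had 0 of 17 past 1.5-fold. Their median was 0.12, with 12 genes above 0 at any level, beside 10689 of all 22180 genes. Of the 17, 15 averaged 6 or more, and of all genes with such a level 40.1% were above 0. The farthest from 0 were Atp6v1h at 0.53 and Atp6v1g1 at -0.47, both of the cytosolic part of the pump. The value of Atp6v1g1 averages 3 probe sets, of which the brightest was at -0.15. Genes of enzyme delivery had 0 of 15 past 1.5-fold and a median of -0.04, and those of the mannose 6-phosphate receptors, M6pr and Igf2r, had -0.15 and -0.25. Lrp1, the gene of an endocytic receptor, had the largest difference of that list at -0.30.

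Among 17 further enzyme genes 2 were higher and 1 was lower by at least 1.5-fold, beside 3.26% and 2.79% of all genes. Hgsnat, which encodes the acetyltransferase that prepares heparan sulfate for the enzyme of Naglu, had 9.49 in clone P3, against 8.86 in control cells. The difference of 0.63 was opposite in sign to those of Naglu and Sgsh, which serve the same breakdown but lay within their spreads. Ifi30, the gene of a thiol reductase of the lysosome, had 9.88 in clone P3, against 8.24 in control cells, a difference of 1.63. Hpse, the heparanase gene, had 2 probe sets that differed widely. The brighter had 4.65 in clone P3, against 6.28 in control cells, a difference of -1.63, and the dimmer had 2.45 in clone P3, against 2.50 in control cells, a difference of -0.06. Their mean of -0.84 therefore depends on the dim probe set, and by the brighter one Hpse also lay past a difference of 1, downward. The median of this list was 0.03.

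Of 22 further membrane protein genes 0 passed 1.5-fold, and the median was -0.03. The lowest were the transporter genes Slc36a1 at -0.52 and Ctns, which encodes the cystine exporter, at -0.41. Of 11 genes of cathepsin inhibitors 1 was past 1.5-fold, Stfa1 at 0.62, but its mean level was 3.52 and near-identical stefin genes can share its probes. Cstb, the gene of the widespread inhibitor cystatin B, had 9.54 in clone P3, against 10.04 in control cells, a difference of -0.50. Among 22 genes of autophagy and its upstream kinases 0 passed 1.5-fold. Their median was -0.10, with 15 genes below 0 at any level, beside 10815 of all 22180 genes. Of the 22, 20 averaged 6 or more, and of all genes with such a level 59.1% were below 0. Lamtor2 (-0.37), Wipi1 (-0.37) and Rptor (-0.36) differed most.

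Position in the genome was set beside the differences, since the median difference was not the same on every chromosome. The medians given next are over genes whose mean level was no lower than that of the middle probe set. Chromosome 11 had a median of -0.15 over 1076 genes, of which 70.4% were below 0. The lysosomal genes on it were below 0 in 4 of 4 cases, namely Gm2a, Naglu, Sgsh and Gaa, and so were 10 of 13 further pathway genes, among them Slc36a1, Ctns and Wipi1. The X chromosome had a median of -0.11 over 388 genes, 66.0% of them below 0, and there Gla, Tfe3, Lamp2 and Ids were all below 0, though Ids only at -0.0030. Chromosome 5 had the highest median, 0.20 over 834 genes, of which 20.4% were below 0. It carries Scarb2 and Gusb, which were above 0, and Idua at -0.02, and 8 of 9 further pathway genes on it were above 0. Chromosome 3 had a median of -0.13 over 595 genes, of which 71.6% were below 0. Manba, Ctsk and Ctso on it were above 0 and Ctss was below. Of the further pathway genes on it, 6 of 6 were below 0. Across all 47 genes, 24 stood on the same side of 0 as the median of their chromosome.

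Neighbours of the 4 genes past 1.5-fold were examined after their values were seen. Around Gm2a, the 20 nearest genes on chromosome 11 past the same level had a median difference of -0.28, with 15 below 0. None of them was as low as Gm2a, since the lowest was -0.66. Around Scarb2, 17 of 20 neighbours were above 0, with a median of 0.25 and a highest value of 0.61. Around Mcoln1, near the start of chromosome 8, the 14 neighbours had a median of 0.04, and the highest had 0.74. The 20 neighbours of Acp5 on chromosome 9 had a median of 0.0025. With the median of the chromosome subtracted, Gm2a was at -0.88, Mcoln1 at 0.88, Scarb2 at 0.56 and Acp5 at 0.75, so that Gm2a no longer reached 1 and Scarb2 no longer reached 1.5-fold, while Manba, on chromosome 3, did at 0.63. The part of chromosome position in these values was not tested beyond this subtraction.

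**Figure D4:**
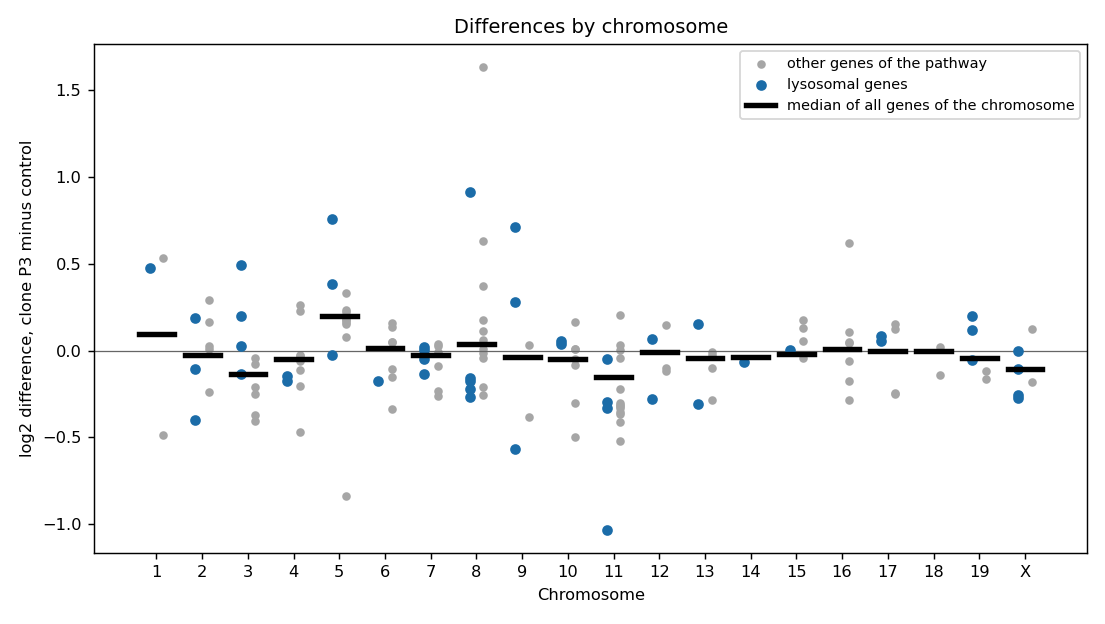
Log2 differences, clone P3 minus control cells (vertical axis), by chromosome, for the 47 lysosomal genes (blue) and the further pathway genes (grey), with black bars at the median of all genes of the chromosome no dimmer on average than the median probe set. On chromosome 11 the 4 lysosomal genes lie below 0 together with the bar at -0.15, and on chromosome 5 the bar is at 0.20.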

How the data were processed

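RMA, which corrects background, normalizes between arrays and summarizes probes, was applied by the authors, who deposited its log2 output for each probe set from 1 Affymetrix Mouse Gene 2.0 array per condition. R 2.15.0 with affy 1.36.0 is named in the submitters' processing notes. No counts lie behind these values, and precision is limited by having 2 arrays.

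Probe sets with 1 gene in the annotation of the array (23521 of 41345) were named through gene identifiers in RefSeq GRCm38.p6, averaged per gene and subtracted, clone P3 minus control, with no further normalization or filter. No test was made. Spread was read from the 500 genes nearest in mean level. Members and lists were chosen with earlier results of these data known. In each group the text gives genes past 1.5-fold, the 2 highest and 2 lowest differences, the brightest probe set and genes with several probe sets; up to 3 genes with the largest differences are given per further list. Other members, single markers and list genes named for their role or chromosome were picked with their values known. Only the code for counts past thresholds, medians and the merging of probe sets of a gene was checked, on planted or made-up values. The other steps were not checked in this way. Alternatives were median centring, quantile normalization, removal of a lowess trend (fraction 0.3), filters on level, the brightest probe set, other thresholds and, added later, subtraction of chromosome medians. Software was matplotlib 3.10.9, statsmodels 0.14.6, pandas 2.3.3 and numpy 2.4.6 under Python 3.11.15.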

Additional observations from a re-analysis of the deposited data

How the results depend on the processing

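No paired analysis was possible because each condition has 1 array, and no replicate could be left out. The count of 1 lysosomal gene past a log2 difference of 1 (0 higher, 1 lower) was the same with median centring, quantile normalization, removal of the trend on mean level, either filter on level, the brightest probe set and counting over probe sets. It was 4 (3 higher, 1 lower) at 1.5-fold and 0 at a threshold of 2 on the log2 scale. It was also 0 with chromosome medians subtracted, an alternative chosen after the data were seen, which left 0 lower genes. Gm2a ran from -1.09 with median centring to -0.88 with chromosome medians subtracted. Of the 4 genes past 1.5-fold, 4 remained so with centring, quantile normalization, trend removal and the brightest probe set, and 3 with chromosome medians subtracted. Ctsh, at -0.57, passed 1.5-fold with centring (-0.62), quantile normalization (-0.59) and trend removal (-0.599), and Manba, at 0.49, passed it with chromosome medians subtracted (0.63). Medians of the groups and lists moved by less than 0.1 under every alternative tried, but 6 of 12 took both signs: those of all 47 genes, cathepsins, glycosidases, other hydrolases, enzyme delivery and further enzymes. In the list of further enzymes, 2 genes in place of 1 passed a difference of 1 with the filter at the median level, with the brightest probe set and with chromosome medians subtracted. The second was Hpse, lower in clone P3, at -1.63 by its brighter probe set and at -1.04 with the chromosome median subtracted. Genes with low mean levels, among them Acp5, Ctse and Stfa1, are the least precise.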
